A study of Mus musculus with 8 samples.

Results

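Silencing of Krüppel-like factor-6 (Klf6) in primary mouse cells of the oligodendrocyte lineage was accompanied by lower RNA levels of the same 34 genes in oligodendrocyte progenitors (OLP) and in immature oligodendrocytes (iOL). These genes were selected on the measured values: a gene was taken where it was listed for both stages and its level with the Klf6 siRNA (siKlf6) was below its level with the non-targeting siRNA (NT) in both. They are 34 of the 337 genes listed for at least 1 stage, 15.7% of the 216 genes listed as lower in OLP and 66.7% of the 51 listed as lower in iOL. Of the 50 genes listed for both stages, 16 were higher with siKlf6 at both stages and 0 differed in direction.

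The 8 samples formed 4 groups of 2 cultures. All were primary OLP cultures from C57BL/6 mice, grown in Sato medium with PDGF-AA at 10 ng/ml and bFGF at 20 ng/ml and nucleofected with an siRNA, so that the NT groups share the nucleofection and carry an siRNA as well. The OLP NT and OLP siKlf6 groups had no further treatment, and the iOL NT and iOL siKlf6 groups were exposed for 18 h to 40 ng/ml of the thyroid hormone T3. The methods describe a move to differentiation medium for T3. The paper also describes harvest of OLP after attachment and of iOL after an additional 18 h. T3, a change of medium and time since nucleofection therefore cannot be told apart between the stages. The files give 1 pooled value for each gene and group, in FPKM (fragments per kilobase of transcript, scaled to the number of mapped fragments, a level per length that can be compared between genes). Spread between cultures and sequencing depth are therefore unknown, no difference below has an error or a test, and every gene listed had been called significant by the authors before deposit. The stages come from separate tables that may have been normalized apart, so a level set across them may carry a difference in scale. In such bulk values, fewer cells of a type and less RNA per cell cannot be told apart.

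Klf6 is a zinc finger transcription factor. OLP divide in response to PDGF, and thyroid hormone drives them out of the cell cycle towards myelin-forming oligodendrocytes. OLP also receive synapses from neurons and express a number of genes better known from neurons, including parts of the machinery for vesicle release. An siRNA is a short duplex whose guide strand directs cleavage of a transcript that it matches in full. As background, a guide can also lower transcripts that match only its seed, the bases near its 5′ end, most often in the 3′ UTR, in the way a microRNA does.

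Klf6 itself stood at 38.6 FPKM in OLP NT and at 20.0 FPKM in OLP siKlf6, which is 51.8% of the control level and a log2 ratio of -0.95. Klf6 has no entry among the genes listed for iOL, so its level there was not analysed here.

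The primary Klf6 siRNA of the study and its seed matches in the 34 genes are shown first, because the sequence match was not used to choose the genes. The 19 bases of the target were read from the Klf6 reference transcript (NCBIM37, the mm9 build), where they lie in the coding part of exon 2 of 4 at chr13:5864534-5864552 on the plus strand. Klf6 was the only annotated gene with the whole 19-base target. Capitals mark guide bases 2 to 8 in the guide and the letters they pair with in the target, TACACGA. The methods name this siRNA as the primary one, used throughout apart from checks of specificity with others.
Klf6 target, sense strand: gcaggaaagttTACACGAa
Klf6 guide strand: uUCGUGUAaacuuuccugc

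A match to guide bases 2 to 8 was present in the 3′ UTR of 10 of the 33 genes of the set with an annotated 3′ UTR. The 19 transcript bases around each match are given 5′ to 3′ so that they can be read against the target above, with the matching letters in capitals. A capital A at the 3′ end marks a match extended by an A opposite guide base 1, which was present in 6 of the 10.
Mthfd2l (chr5:91449294-91449312, plus strand, exon 8): acagcggggagTACACGAA
Slc30a4 (chr2:122510634-122510652, minus strand, exon 7): tatgcaacatgTACACGAA
Apba1 (chr19:24023801-24023819, plus strand, exon 13): cattctttgtaTACACGAA
Acsl4 (chrX:138752966-138752984, minus strand, exon 16): tttgctttaatTACACGAA
Ing1 (chr8:11563178-11563196, plus strand, exon 2): acatttcatgaTACACGAA
Pid1 (chr1:84033982-84034000, minus strand, exon 3): tgctttttattTACACGAA
Otud6b (chr4:14738716-14738734, minus strand, exon 8): cacagctacctTACACGAg
Homer2 (chr7:88746600-88746618, minus strand, exon 9): atcaagagcttTACACGAg
Gm16515 (chr11:60716671-60716689, minus strand, exon 3): cctaagtttcaTACACGAg
Trps1 (chr15:50488797-50488815, minus strand, exon 6): ctgggagacacTACACGAc

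A second 7-base form, guide bases 2 to 7 with an A opposite guide base 1 (ACACGAA), was the only 7-base form in 7 genes. These were Nedd4, Nefl, Unc13b, Ndfip2, Tbc1d22a, Zfp2 and Pip4k2b. Their log2 ratios in OLP ran from -2.20 for Nedd4, the lowest of the set, to -0.69 for Pip4k2b, the nearest to 0. Nedd4 carried this form at 2 places of its 3′ UTR, 719 and 2290 bases after the stop codon. The Nedd4 sites are shown because it had the highest control level among the genes with a 7-base match. The Nefl site was picked with its ratio in OLP known, and the sites of the other genes are not shown.
Nedd4, first site (chr9:72595743-72595761, plus strand, exon 29): gaattccttcaaACACGAA
Nedd4, second site (chr9:72597314-72597332, plus strand, exon 29): cacattcacgaaACACGAA
Nefl (chr14:68705802-68705820, plus strand, exon 4): accacacacacaACACGAA

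None of these sites matched the whole Klf6 target. Capitals included, 12 of 19 bases were identical to it by position at the Mthfd2l and Slc30a4 sites, 9 at the first Nedd4 site and 8 at the Gm16515 site.

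The share of genes with a match to guide bases 2 to 8 was higher in this set than in the other groups of genes listed. It was 30.3% of the 33 genes (Wilson 95% interval 17.4 to 47.3, which treats genes as independent draws). Among genes lower in OLP and listed for OLP only it was 9.14% (16 of 175; 5.71 to 14.3). Among genes lower in iOL and listed for iOL only it was 0 of 16, which allows up to 19.4%. None of the 16 genes higher at both stages had a match, which again allows up to 19.4%. Among genes higher and listed for a single stage it was 0 of 40 for OLP, which allows up to 8.76%, and 1 of 40 for iOL. In the 19595 annotated genes listed for neither stage, which include genes these cells may not express, the share was 1.23% (1.08 to 1.39). The interval of the set overlapped those of the 2 groups of 16 genes and lay above the others, and the differences in share themselves were not tested.

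A longer 3′ UTR has more room for a match, and lengths differed between these groups. The median 3′ UTR was 1575 bases in the 33 genes and 1596 bases in the genes listed as lower for OLP only. It was 1437.5 bases in the genes higher at both stages and 881 bases in the genes listed for neither stage. Per 10 kb of 3′ UTR there were 1.45 matches in the set. There were 0.498 in the genes listed as lower for OLP only and 0.0939 in the genes listed for neither stage. The difference in share was thus also present per base.

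With either 7-base form counted, 17 of the 33 genes (51.5%, interval 35.2 to 67.5) had a match. So did 15.4% of the genes listed as lower for OLP only, 6.25% of the genes higher at both stages and 2.66% of the genes listed for neither stage. This combined form was chosen after the values were seen. The seed of the opposite strand of the same siRNA (TTTCCTG) was present in 24.2% of the 33 genes and in 21.4% of the genes listed for neither stage. The guide seeds of the other 2 Klf6 siRNAs of the study were present in 0 of 33 genes (GCACGAA; up to 10.4%) and in 6.06% (GTAGGCT), beside 1.39% and 4.99% of the genes listed for neither stage. Whether a seed match had a part in any of the lower levels was not tested, and a match is not by itself a site of action.

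**Figure D1:**
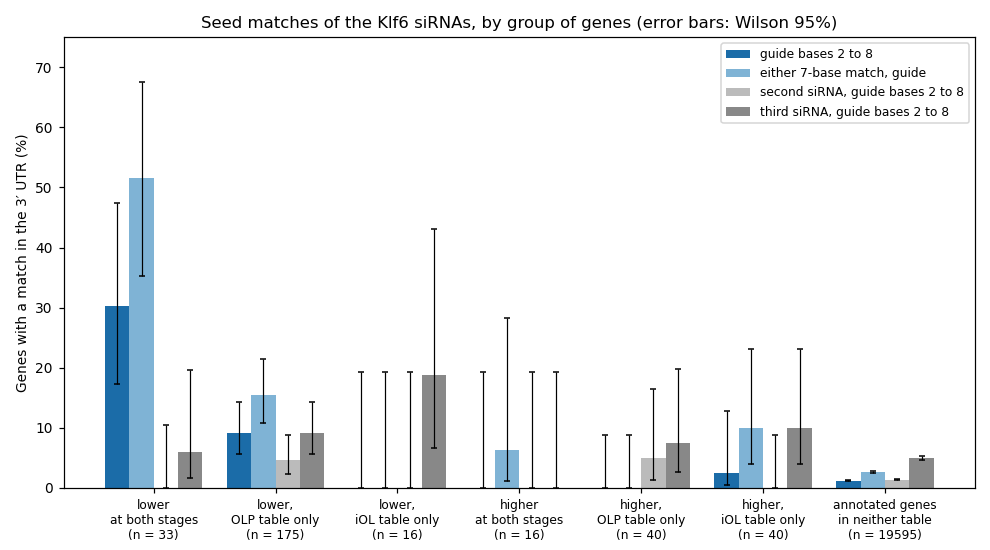
Share of genes (vertical axis, percent) with a 3′ UTR match to the primary Klf6 siRNA's guide seed, as guide bases 2 to 8 or as either 7-base form, or to the guide seeds of the other 2 Klf6 siRNAs, for 7 groups of genes (horizontal axis), with Wilson 95% intervals as error bars. The primary guide's bars stand at 30.3% and 51.5% in the genes lower at both stages and at 1.23% and 2.66% in the genes listed for neither stage, and the bars of the other siRNAs are at 0 and 6.06% in the set.

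The matches of either 7-base form were also counted by function, beside 17 of the 34 genes in the whole set. The groups were drawn with the members known and hold 2 to 9 genes each, so the counts only describe them. All 3 ubiquitin genes carried one, as did 4 of 6 lipid, zinc and metabolic genes, 4 of 9 neuronal genes, 3 of 6 nuclear genes and 3 of 5 of the remaining signalling and unclassified genes. None of the 3 membrane and actin genes and neither of the 2 myelin and glial genes carried one. A further 4 genes, Gabbr2, Celf4, Tagln2 and Eef2k, held 6 bases only, and Yeats4 held the letters of guide bases 2 to 8 in its coding sequence but not in its 3′ UTR. St6galnac3 has no annotated 3′ UTR in the longest form used. Within the set, genes with a match had longer 3′ UTRs. The median was 2291 bases in the 17 genes with a 7-base match and 869 bases in the 17 without, with St6galnac3 counted as 0. The part of length in the counts by function was not tested.

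The ratios overlapped between the classes of match. The median log2 ratio was -1.16 in OLP and -0.68 in iOL for the 10 genes with guide bases 2 to 8, -1.04 and -0.72 for the 7 genes with the second form alone, and -1.05 and -0.79 for the 13 genes with no match or no 3′ UTR. The lowest ratio in OLP, -2.20 for Nedd4, belonged to a gene with a match, and the lowest in iOL, -1.44 for Ndrg2, to a gene without one.

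**Figure D2:**
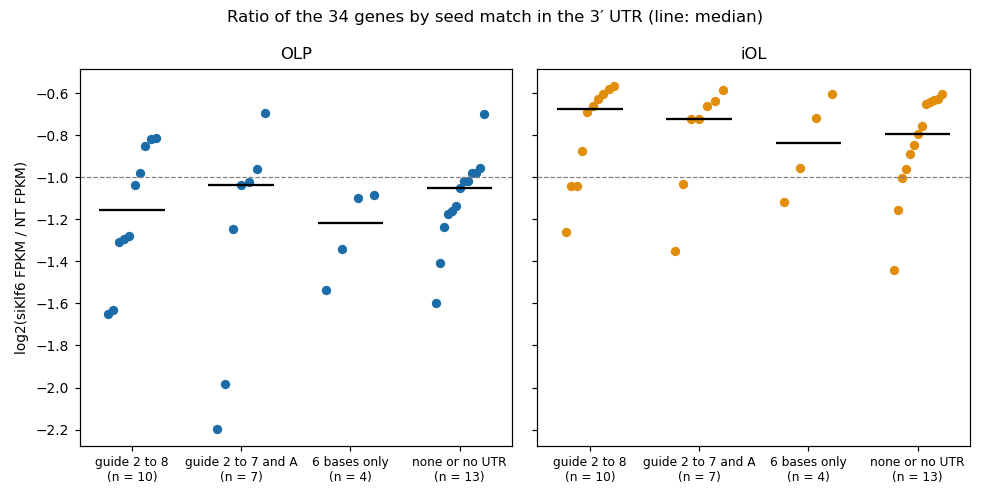
Log2 ratio of the siKlf6 to the NT level (vertical axis) for each of the 34 genes in OLP (left) and iOL (right), by type of seed match in the 3′ UTR (horizontal axis), with a line at each median and a dashed line at 2-fold lower. The classes overlap at both stages, with medians between -1.22 and -1.04 in OLP and between -0.84 and -0.68 in iOL.

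In OLP the siKlf6 level of the 34 genes was 46.9% of the NT level at the median, a log2 ratio of -1.09 (range -2.20 to -0.69). In iOL it was 60.6%, a log2 ratio of -0.72 (range -1.44 to -0.57). By the rule all 34 were lower, beside 78.5% of the 275 genes listed for OLP and 45.5% of the 112 listed for iOL. Of all genes listed, with those higher in siKlf6 included, 47.6% were at least 2-fold lower in OLP and 13.4% in iOL. Of the 34 genes, 24 reached this in OLP (70.6%) and 9 in iOL (26.5%). With 1 FPKM added to every value these counts were 12 in OLP and 4 in iOL. Since the rule used the same ratios, these counts describe the set and nothing is read from them. The genes listed as lower for 1 stage and not listed for the other had median log2 ratios of -1.19 in OLP and -0.87 in iOL. A fall of at least 2-fold was seen in 107 of these genes for OLP (58.8%) and in 6 for iOL (35.3%). Beside them the 34 genes thus stood higher for OLP and lower for iOL, with no test. The levels of the genes listed for 1 stage are unknown at the other.

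Among the 34 genes, those closest to the boundary of the rule were Pip4k2b (-0.69) and Stmn3 (-0.70) in OLP and Otud6b (-0.57) and Ing1 (-0.58) in iOL. The smallest increases among genes listed for both stages were those of the laminin chain Lama4 (0.62) in OLP and the focal adhesion protein Tns3 (0.55) in iOL.

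**Figure D3:**
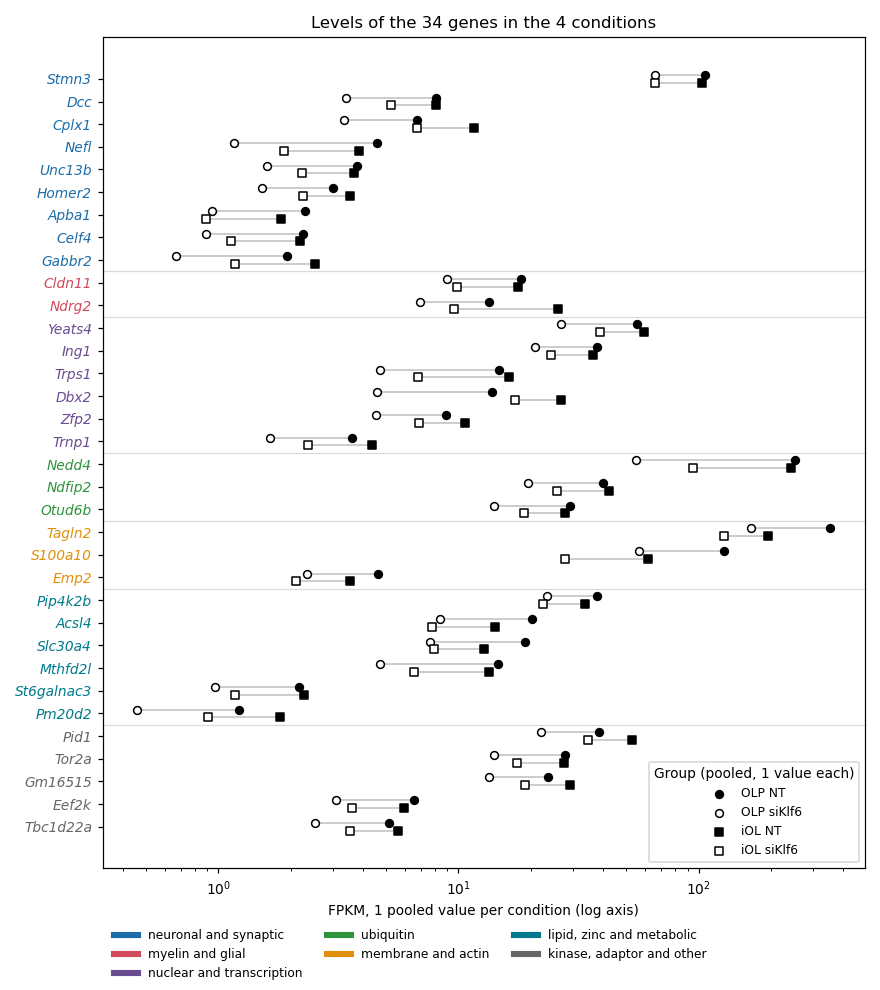
FPKM on a log axis (horizontal) of the 34 genes (vertical, grouped and coloured by function) in the 4 groups, with 1 pooled value each, filled symbols for NT and open symbols for siKlf6. In every gene the open symbol lies to the left of the filled one at both stages, as the rule demands, and NT levels run from 1.22 FPKM for Pm20d2 to 354 FPKM for Tagln2 in OLP.

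Of the 34 genes, 9 are best known from neurons and synapses. Their median log2 ratio was -1.24 in OLP and -0.79 in iOL, and 6 of the 9 had an NT level under 5 FPKM in OLP. Of the other 3, Cplx1 and Dcc were under 10 FPKM there and Stmn3 was the most abundant.

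Of the genes of vesicle release, Cplx1, which encodes a complexin that binds SNARE complexes and regulates vesicle fusion, was at 6.75 FPKM in OLP NT and 3.34 FPKM in OLP siKlf6, and at 11.6 and 6.71 FPKM in iOL. Unc13b, a Munc13 protein that primes vesicles for fusion, was at 3.79 and 1.60 FPKM in OLP and at 3.69 and 2.24 FPKM in iOL. Apba1, an adaptor that binds the amyloid precursor protein and the fusion protein Munc18, was at 2.30 and 0.940 FPKM in OLP and at 1.83 and 0.889 FPKM in iOL. The log2 ratio of Apba1 in iOL was -1.04, and from these low levels it was -0.97 with 0.1 FPKM and -0.58 with 1 FPKM added to both values.

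For the counts of gene lists that follow, the share of all 22611 annotated genes listed as lower was 0.929% in OLP and 0.221% in iOL, and that listed as higher was 0.252% at each stage. How many of these genes the authors tested is unknown, and the lists were chosen with results known, so the counts only describe which genes are listed. Cplx1, Unc13b and Apba1 were the only lower genes of a list of 27 transmitter release genes. None of the 27 was higher in OLP, and 2 were higher in iOL, Unc13c (0.126 FPKM in NT and 0.303 FPKM in siKlf6) and the vesicle GTPase Rab3b (35.7 and 61.7 FPKM). The other genes of the list are not listed at either stage and have no level here. Outside the list, the synaptic vesicle gene Sv2c, picked after its values were seen, was higher at both stages. It was at 3.66 FPKM in NT and 7.64 FPKM in siKlf6 in OLP and at 0.824 and 2.45 FPKM in iOL.

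Homer2, a postsynaptic scaffold that binds metabotropic glutamate receptors, was at 3.01 and 1.52 FPKM in OLP and at 3.55 and 2.25 FPKM in iOL. It was the only lower gene of 17 postsynaptic genes at each stage, and 2 others were higher with siKlf6 at both stages. Nrgn, a calmodulin-binding postsynaptic protein, was at 8.96 FPKM in NT and 29.7 FPKM in siKlf6 in OLP and at 3.87 and 8.97 FPKM in iOL, and the immediate early gene Arc at 14.9 and 24.2 FPKM and at 4.03 and 7.11 FPKM. The synaptic genes listed thus did not share 1 direction.

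Gabbr2, a subunit of the GABA-B receptor, was at 1.92 and 0.664 FPKM in OLP and at 2.54 and 1.17 FPKM in iOL, with log2 ratios of -1.53 and -1.12. With 1 FPKM added to these low levels they were -0.81 and -0.71. Dcc, a receptor for the guidance cue netrin, was at 8.03 and 3.40 FPKM in OLP and at 8.08 and 5.23 FPKM in iOL. It was the only gene listed of 12 netrin receptors and ligands.

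Celf4, an RNA-binding protein that acts on splicing and translation of neuronal transcripts, was at 2.26 and 0.890 FPKM in OLP and at 2.18 and 1.13 FPKM in iOL. Among 17 neuronal RNA-binding genes it was the only lower one, while Mbnl1 was higher in OLP (14.3 FPKM in NT, 22.2 FPKM in siKlf6).

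Nefl, the light chain of neurofilaments, had the second lowest ratio of the set in OLP. It was at 4.59 FPKM in OLP NT and 1.16 FPKM in OLP siKlf6, a log2 ratio of -1.99, and at 3.85 and 1.88 FPKM in iOL, a log2 ratio of -1.03. With 1 FPKM added to these low levels the ratios of Nefl were -1.37 and -0.75. Its OLP ratio was then nearer 0 than those of Trps1 (-1.47), Mthfd2l (-1.45) and Dbx2 (-1.41), so its rank depends on the low level. Stmn3, a stathmin that destabilises microtubules, had the opposite profile in size, with 107 and 65.7 FPKM in OLP and 103 and 66.0 FPKM in iOL and log2 ratios of -0.70 and -0.64. It was the most abundant of the 9 neuronal genes and had the ratio nearest 0 among them in OLP. Of 16 microtubule and neurofilament genes, Tubb3 was lower in OLP as well (21.97 and 6.62 FPKM) and the huntingtin-associated Hap1 was higher there (40.0 and 67.4 FPKM).

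The OLP had been isolated by panning, first on a lectin that removes microglia and then on an antibody to PDGFRa. Markers of other cell types were looked up beside these genes. Of 10 neuron markers 2 were listed in OLP, Tubb3 and Nefl, both lower, and only Nefl was listed in iOL. Of 10 astrocyte markers only Gfap was listed, in OLP, at 3.06 FPKM in NT and 0.0752 FPKM in siKlf6, and of 10 endothelial and mural markers only Kdr, in OLP, at 0.764 and 0.323 FPKM. None of 10 microglial markers was listed at either stage. Of 10 genes taken as OLP markers only Sox10 was listed, in iOL, at 42.1 FPKM in NT and 25.9 FPKM in siKlf6. The paper places Sox10 among transcripts of differentiation, so it is not a marker of progenitors alone. Markers that are not listed have no level here, so the identity of the cells could not be checked against their defining markers, and the part of other cells in the neuronal values was not tested.

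The set held 2 genes of myelin and glia. Cldn11, the claudin that forms the tight junctions of central myelin, was at 18.2 FPKM in OLP NT and 8.97 FPKM in OLP siKlf6 and at 17.7 and 9.83 FPKM in iOL, with log2 ratios of -1.02 and -0.85. Its control level was nearly the same at both stages. It was the only one of 20 myelin genes listed at either stage.

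Ndrg2, a member of the N-myc downstream regulated family that is abundant in astrocytes in the brain, was at 13.5 and 6.94 FPKM in OLP and at 25.9 and 9.55 FPKM in iOL. Its log2 ratio was -0.96 in OLP and -1.44 in iOL, which made it the gene with the lowest ratio in iOL. It was the only one of the 34 whose ratio was lower in iOL than in OLP. Of the 4 family members Ndrg1 was also lower in OLP, from 0.948 to 0.350 FPKM.

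Among 6 nuclear genes the ratio in OLP was lowest for Trps1, a GATA-type zinc finger repressor, at 14.8 and 4.71 FPKM in OLP and at 16.3 and 6.81 FPKM in iOL. Its row also names the microRNA gene Mir1907, so the value cannot be assigned to Trps1 alone. Its log2 ratios were -1.65 and -1.26, at least 2-fold lower at both stages.

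Dbx2, a homeodomain protein that patterns the neural tube, was at 13.8 and 4.57 FPKM in OLP and at 26.6 and 17.2 FPKM in iOL. Its log2 ratios of -1.60 and -0.63 were the farthest apart of the set, by 0.97, and it was the only gene listed of 12 neural tube patterning genes. Trnp1, a nuclear protein of neural progenitors, was at 3.62 and 1.65 FPKM in OLP and at 4.38 and 2.36 FPKM in iOL.

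The other 3 nuclear genes had ratios nearer 0 in OLP. Ing1, which reads methylated histone H3 in deacetylase complexes, was at 37.8 and 20.9 FPKM in OLP and at 36.5 and 24.4 FPKM in iOL. Yeats4, a histone reader of chromatin remodelling complexes, was at 55.5 and 26.8 FPKM in OLP and at 59.1 and 38.9 FPKM in iOL. Zfp2, a zinc finger protein, was at 8.85 and 4.55 FPKM in OLP and at 10.7 and 6.87 FPKM in iOL. None of these 3 was 2-fold lower in iOL, with log2 ratios between -0.64 and -0.58.

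The ubiquitin genes included the lowest ratio of the set in OLP. Nedd4, a HECT-type ubiquitin ligase for membrane proteins, was at 252 FPKM in OLP NT and 54.9 FPKM in OLP siKlf6, 21.8% of control, and at 242 and 95.04 FPKM in iOL, 39.3% of control. On the log2 scale its ratios were -2.20 and -1.35. Its control level was nearly the same at both stages, and its siKlf6 level was higher in iOL.

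Ndfip2, a membrane adaptor that recruits Nedd4 family ligases, was at 39.9 and 19.4 FPKM in OLP and at 42.6 and 25.8 FPKM in iOL. Otud6b, a deubiquitinase, was at 29.0 and 14.1 FPKM in OLP and at 27.8 and 18.8 FPKM in iOL, with the iOL ratio nearest 0 in the set (-0.57). In a list of 12 genes, Nedd4-type ligases and their adaptors together with Otud6b, Smurf1 was also lower in OLP (17.2 and 10.5 FPKM). That made 4 of 12 lower in OLP and 3 of 12 in iOL, beside 0.929% and 0.221% of annotated genes. Otud6b is not a ligase of this type. The list was chosen with Nedd4, Ndfip2 and Otud6b known as members of the set, so the counts only describe it.

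Tagln2, an actin-binding transgelin, was the most abundant gene of the set in OLP. It was at 354 and 165 FPKM in OLP and at 194 and 127 FPKM in iOL, with log2 ratios of -1.10 and -0.61. S100a10, the binding partner of annexin A2 at the plasma membrane, was at 127 and 56.3 FPKM in OLP and at 61.6 and 27.7 FPKM in iOL. Its log2 ratios of -1.18 and -1.15 were the closest to each other of the 34. Anxa2 itself was lower in OLP (7.74 and 2.69 FPKM) and is not listed in iOL. Emp2, a tetraspan membrane protein, was at 4.63 and 2.35 FPKM in OLP and at 3.55 and 2.10 FPKM in iOL.

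Cldn11 and Emp2 were the only genes listed of 13 tight junction and tetraspan genes. Of 15 actin and focal adhesion genes Tns3 was higher at both stages. None of 21 basement membrane and matrix genes was lower, beside 0.929% of annotated genes listed as lower in OLP and 0.221% in iOL. Higher were 3 in OLP and 4 in iOL, beside 0.252% of annotated genes listed as higher at each stage. These were Lama4, Fbln2 and Antxr2 at both stages and Fbn2 in iOL. The list was chosen with results known, so these counts only describe which genes are listed.

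Among 6 lipid, zinc and metabolic genes, Mthfd2l, a mitochondrial enzyme of folate metabolism, was at 14.6 and 4.72 FPKM in OLP and at 13.5 and 6.53 FPKM in iOL, with log2 ratios of -1.63 and -1.04. Acsl4, which activates long polyunsaturated fatty acids with coenzyme A, was at 20.3 and 8.36 FPKM in OLP and at 14.3 and 7.78 FPKM in iOL. It was the only gene listed of 8 genes of fatty acid activation. Slc30a4, a zinc transporter of vesicle membranes, was at 18.9 and 7.61 FPKM in OLP and at 12.8 and 7.95 FPKM in iOL, and it was the only gene listed of 8 zinc transporters.

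The other 3 of this group were at both ends of the range of levels. Pm20d2, a dipeptidase, was the least abundant of the set in every group but iOL siKlf6, at 1.22 and 0.460 FPKM in OLP and at 1.81 and 0.902 FPKM in iOL. St6galnac3, a sialyltransferase that acts on gangliosides, was at 2.16 and 0.968 FPKM in OLP and at 2.28 and 1.17 FPKM in iOL. Pip4k2b, a phosphoinositide kinase, was at 37.9 and 23.5 FPKM in OLP and at 33.7 and 22.5 FPKM in iOL, and its log2 ratio in OLP (-0.69) was the nearest to 0 of the set. Of 14 phosphoinositide genes it was the only lower one, and the regulatory subunit Pik3r3 was higher in OLP (17.2 and 28.9 FPKM).

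The last 5 genes share no function. Eef2k, the kinase that phosphorylates and inhibits elongation factor eEF2, was at 6.54 and 3.08 FPKM in OLP and at 5.93 and 3.61 FPKM in iOL. Pid1, a phosphotyrosine-binding adaptor, was at 38.7 and 22.01 FPKM in OLP and at 52.6 and 34.7 FPKM in iOL. Tor2a, a torsin ATPase, was at 27.7 and 14.0 FPKM in OLP and at 27.5 and 17.5 FPKM in iOL. None of these genes was 2-fold lower in iOL. Tbc1d22a, with the domain of Rab GTPase-activating proteins, was at 5.15 and 2.53 FPKM in OLP and at 5.60 and 3.54 FPKM in iOL. Gm16515, which RefSeq names Natd1, was at 23.6 and 13.4 FPKM in OLP and at 29.2 and 18.9 FPKM in iOL.

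In 33 of the 34 genes the ratio was nearer 1 in iOL than in OLP. The median difference in log2 ratio, iOL minus OLP, was 0.35 (range -0.49 for Ndrg2 to 0.97 for Dbx2). The next largest differences were those of Nefl (0.95) and Nedd4 (0.85), and the smallest were those of S100a10 (0.02) and Stmn3 (0.06). Of the 16 genes higher at both stages, 8 had the smaller increase in iOL, with a median difference of 0.03. Both ratios were also used by the rule, so this is a description without a test.

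**Figure D4:**
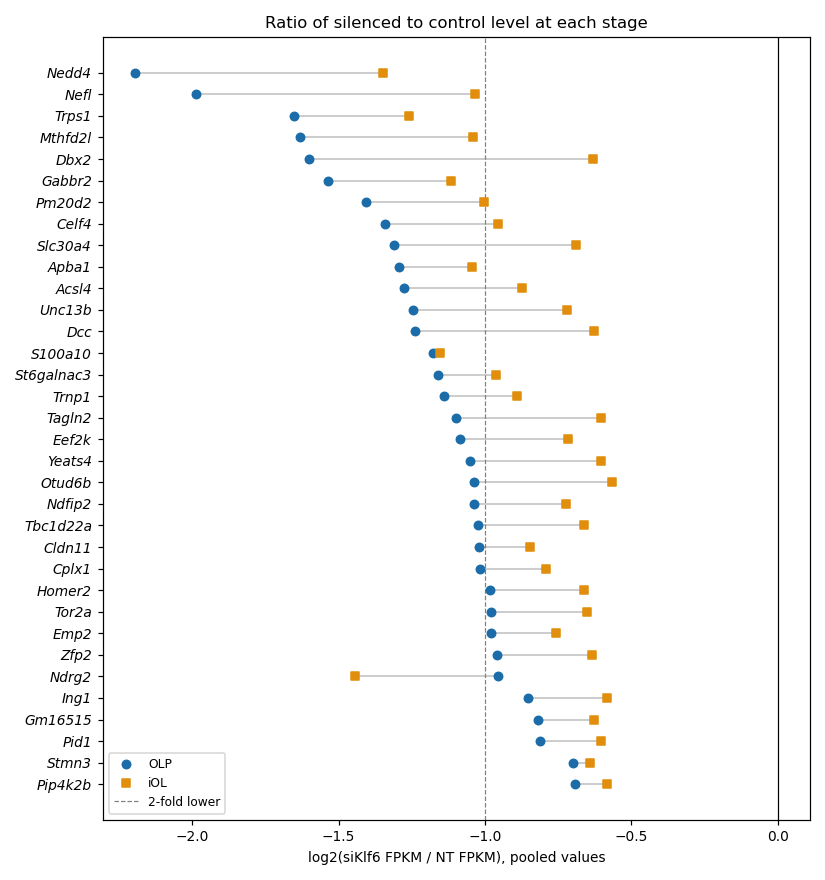
Log2 ratio of the siKlf6 to the NT level (horizontal axis) for each of the 34 genes (vertical axis) in OLP (circles) and iOL (squares), 1 pooled value per group, ordered by the ratio in OLP, with a dashed line at 2-fold lower. The square lies to the right of the circle in 33 genes, and Ndrg2 is the exception.

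The control levels of many of these genes lay close together at the 2 stages, set across separate tables and with no test. The log2 ratio of iOL NT to OLP NT had a median of -0.02, with 16 genes higher and 18 lower in iOL, and 19 of the 34 genes were within 1.2-fold. With siKlf6 the median was 0.46 and 28 genes were higher in iOL. For each gene the siKlf6 ratio is the NT ratio plus the iOL minus OLP difference given above, so it adds no further result. The genes higher at both stages differed in the NT ratio, with a median log2 value of -0.97 and 13 of 16 lower in iOL.

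The control levels of a few genes were farther apart. The highest ratios of iOL NT to OLP NT were those of Ndrg2 (log2 0.95), Dbx2 (0.94) and Cplx1 (0.78), and the lowest those of S100a10 (-1.05) and Tagln2 (-0.87). S100a10 was the only gene of the 34 whose control levels differed by over 2-fold between the stages.

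**Figure D5:**
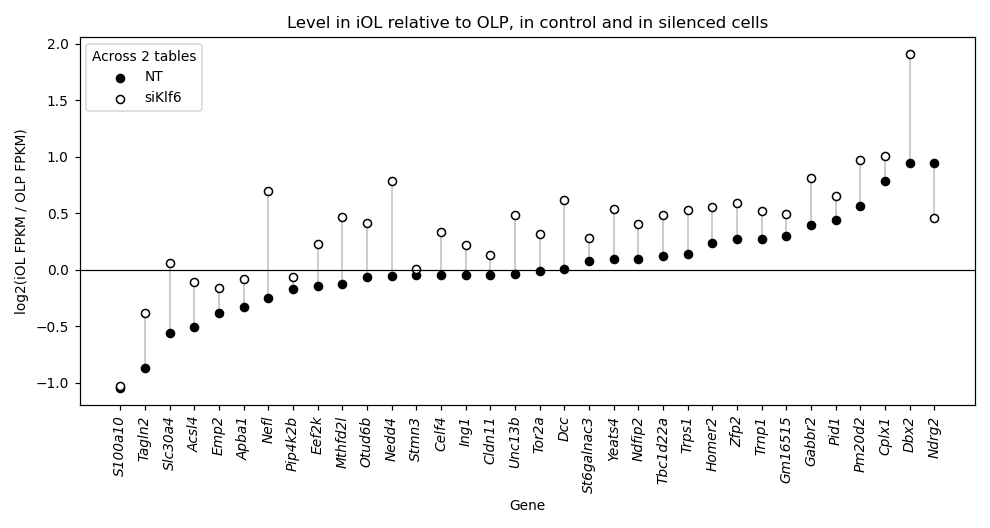
Log2 ratio of the iOL to the OLP level (vertical axis) for the 34 genes (horizontal axis, ordered by the NT ratio), with filled circles for NT and open circles for siKlf6. Most filled circles lie near 0 (median -0.02) and most open circles above it (median 0.46).

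The 34 genes lie on 16 chromosomes, with 5 on chromosome 4. The closest pair, Unc13b and Gabbr2, is 3397 kb apart (NCBIM37). All 34 carried the same locus identifier at both stages.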

How the data were processed

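RNA was sequenced on an Illumina HiSeq instrument from TruSeq libraries. The authors mapped reads to mm9 with TopHat and used Cufflinks and CuffDiff with default settings. The submitters' processing notes list CASAVA 1.8, TopHat2 and Cuffdiff. The deposited tables, 1 per stage, give 1 pooled FPKM value per gene and condition, with no depth or culture values, only for genes the authors called significant. Their columns of log2 fold changes, test statistics, p-values and q-values were not used.

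Log2 ratios of siKlf6 to NT FPKM were computed without a pseudocount (Python 3.11.15, pandas 2.3.3, scipy 1.17.1) with scripts tested on simulated data. Seed letters were searched on the sense strand of the longest 3′ UTR per gene in GENCODE annotation of NCBIM37, with Wilson 95% intervals. Matches of 8 bases are also counted in both 7-base forms. All 34 genes are named. Of the gene lists, every gene listed is named, save repeats. The members and lists were chosen with earlier results of these data known. A promoter comparison was void, since 27 of the 34 genes (under 80%) had a sequence.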

Additional observations from a re-analysis of the deposited data

How the results depend on the processing

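The number of genes lower at both stages was 33 for rows that name a single gene, 29 with at least 1 FPKM in every condition, 34 with at least 1 FPKM in NT and 34 by locus identifier (chosen after seeing the data), and 8 where at least 2-fold was required at both stages. With 1 FPKM added to every value the median log2 ratio moved to -0.87 in OLP and -0.60 in iOL, and the genes at least 2-fold lower numbered 12 in OLP and 4 in iOL. With 0.1 FPKM added they numbered 22 and 6. Of the 68 ratios of the 34 genes 33 moved by over 0.1 with 1 FPKM added and 2 with 0.1. The share of genes with a seed match was 63.6% for 6 bases (6.58% of annotated genes listed for neither stage), 42.4% for guide bases 2 to 7 with an A (1.82%), 18.2% for 8 bases (0.347%), 32.4% in whole transcripts (3.46%), 24.2% for the opposite strand (21.4%), 0 for the second siRNA (1.39%), 6.06% for the third siRNA (4.99%) and 51.5% for either 7-base form (2.66%; chosen after seeing the data).

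No paired analysis was possible because each condition is a single pooled value. For the same reason no fit with a replicate block and none without a replicate was run. The promoter comparison was void in both windows, since too few of the 34 genes had a sequence, and no value of it is given. Depth is unknown, and 5 of the 34 genes were under 1 FPKM in OLP siKlf6 and 2 in iOL siKlf6.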
